A study of Homo sapiens with 12 samples.

Results

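A set of 9 genes of cell adhesion was followed in PC3 cells, read in 2 classes by their textbook roles: the epithelial genes CDH1, EPCAM, OCLN and TJP1, and the mesenchymal genes CDH2, VIM, FN1, ZEB1 and SNAI2. They are 9 of the 43613 genes with linear transcripts in the deposited table. PC3 is a human prostate cancer line, here labelled as wild type, and RNA was sequenced in 12 libraries of 4 groups, with 3 libraries each. The COM cells received silver nanoparticles (AgNPs) and DOC together, the AgNPs cells silver nanoparticles alone, the DOC cells DOC alone, and the BLANK cells PBS. DOC appears in the labels only as this abbreviation, and neither dose, duration nor batch is given. PC3 is 1 line, so the values describe that line.

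Epithelial cells hold together through adherens junctions, built on the cadherin encoded by CDH1, and through tight junctions. In epithelial-mesenchymal transition, transcription factors such as ZEB1 and SNAI2 repress epithelial genes, and cells gain CDH2, the intermediate filament protein vimentin and fibronectin. Prostate cancer lines differ widely along this axis, and PC3 is known to lack alpha-catenin, the protein that ties cadherins to actin.

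ZEB1 and SNAI2 bind the E-box CAGGTG, whose other strand reads CACCTG. RefSeq promoters (GRCh38.p14), looked up by symbol, were examined for 6 of the 9 genes: OCLN, TJP1, CDH2, VIM, FN1 and ZEB1. CDH1 and EPCAM had no usable entry, and SNAI2 was left out of the search. In the 250 bases before the most upstream start, 3 of the 6 genes examined held that E-box, against 17.5% of 35116 promoters in the same table. That share counts every promoter listed for 27305 symbols, not only the most upstream start of each. The 3 genes that held the E-box are shown first, with it in capitals. FN1, the member with the largest change, is shown last with its cyclic AMP response element TGACGTCA, read the same on either strand, in capitals. That element was in 1.65% of promoters, and it was searched for after the values of FN1 were known. None of these motifs overlap, and a match is only a stretch of letters.
OCLN promoter, chr5:69492297-69492546, plus strand: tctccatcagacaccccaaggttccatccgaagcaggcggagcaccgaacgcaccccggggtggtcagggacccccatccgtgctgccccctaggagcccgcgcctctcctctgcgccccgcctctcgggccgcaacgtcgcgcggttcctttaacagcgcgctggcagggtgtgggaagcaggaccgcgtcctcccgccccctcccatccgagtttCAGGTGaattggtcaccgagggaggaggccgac
TJP1 promoter, chr15:29969050-29969299, minus strand: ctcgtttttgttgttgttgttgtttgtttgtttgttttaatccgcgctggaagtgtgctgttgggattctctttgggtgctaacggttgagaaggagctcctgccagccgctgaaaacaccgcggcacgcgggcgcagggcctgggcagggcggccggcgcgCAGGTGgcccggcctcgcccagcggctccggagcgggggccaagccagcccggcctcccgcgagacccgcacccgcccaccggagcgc
ZEB1 promoter, chr10:31318167-31318416, plus strand: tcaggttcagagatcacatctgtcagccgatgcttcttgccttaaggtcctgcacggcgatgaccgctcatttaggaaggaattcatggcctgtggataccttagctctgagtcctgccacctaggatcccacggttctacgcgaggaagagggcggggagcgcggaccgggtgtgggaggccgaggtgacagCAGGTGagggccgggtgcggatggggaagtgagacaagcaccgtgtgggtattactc
FN1 promoter, chr2:215436069-215436318, minus strand: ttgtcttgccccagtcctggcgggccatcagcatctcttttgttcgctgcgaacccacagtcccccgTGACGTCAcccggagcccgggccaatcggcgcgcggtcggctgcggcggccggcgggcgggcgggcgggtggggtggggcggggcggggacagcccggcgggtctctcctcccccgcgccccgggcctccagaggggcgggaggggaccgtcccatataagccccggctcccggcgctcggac
The E-box began 33 bases before the start in OCLN, 88 in TJP1 and 57 in ZEB1, and the element in FN1 began 183 bases before it.

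Summed counts per library were 10996446 to 11069928 in COM, 13049868 to 13362290 in AgNPs, 18603100 to 19421873 in DOC and 22573481 to 22769479 in BLANK. Depth therefore differed between the groups without overlap, and its part in the results was examined only by thinning all libraries to 1 total. DOC replicate 1 and BLANK replicate 1 stood apart from the other libraries of their groups: chi-square per degree of freedom was 3.45 to 4.76 in pairs with them and 1.46 to 1.99 in the other pairs. The luminal keratins KRT8 and KRT18 averaged 161 ± 5.50 and 235 ± 4.95 normalised CPM in BLANK (SD, n = 3). ACP3, another luminal marker, averaged 1.86. The fibroblast markers DCN and LUM and the leukocyte marker PTPRC had at most 2 counts in any library. Other markers of these lists were present: the fibroblast markers tested ran from PDGFRB at 0.49 to COL1A2 at 91.6 normalised CPM in BLANK. The immune markers tested ran from CD14 at 0.33 to CD68 at 43.0.

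The RNA of PC3 cells held far more of the mesenchymal genes than of CDH1. Per unit of transcript length, in FPKM, the order in BLANK was VIM at 484 ± 2.69, CDH2 at 28.0 ± 0.951, TJP1 at 25.6 ± 1.33, SNAI2 at 19.9 ± 1.39, ZEB1 at 14.9 ± 1.04, EPCAM at 7.02 ± 0.340, OCLN at 4.23 ± 0.356, FN1 at 3.08 ± 0.121 and CDH1 at 0.567 ± 0.0569 FPKM (SD, n = 3). No neighbours in that order overlapped in their libraries. VIM ranked 109 of 24205 named genes with a level above 0, and CDH1 ranked 14608. TJP1, an epithelial gene by class, therefore lay among the mesenchymal genes, and FN1 lay below EPCAM and OCLN.

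The order was the same in AgNPs. In DOC the places were the same but the libraries of OCLN and FN1 overlapped. In COM, FN1 at 5.28 ± 0.212, OCLN at 5.28 ± 0.692 and EPCAM at 4.95 ± 0.857 FPKM overlapped (SD, n = 3), so the 3 could not be ordered. The upper 5 places and the last were the same in all 4 groups.

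**Figure D1:**
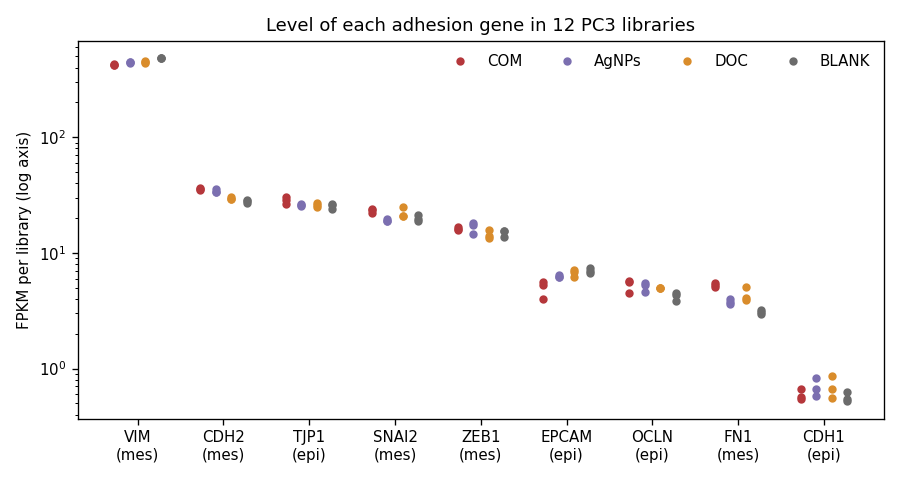
Level of each gene in FPKM (log axis) in the 12 libraries, 1 point per library, with genes ordered by their BLANK mean and marked epi (epithelial) or mes (mesenchymal). VIM lies at 418 to 487 FPKM in all libraries and CDH1 at 0.52 to 0.86 FPKM, and FN1 reaches the EPCAM and OCLN levels in COM.

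Among the epithelial genes, CDH1 encodes E-cadherin, the transmembrane cadherin of epithelial adherens junctions (chromosome 16, 68737292 to 68835537). Its normalised CPM was 2.71, 3.18 and 2.37 in COM, 3.905, 2.89 and 2.76 in AgNPs, 2.66, 3.14 and 2.405 in DOC, and 3.02, 2.48 and 2.62 in BLANK. All groups overlapped. These levels rest on 26 to 67 counts a library, and the log2 difference from BLANK was 0.03 (95% interval -0.36 to 0.41) in COM, 0.24 (-0.12 to 0.59) in AgNPs and 0.02 (-0.33 to 0.36) in DOC. No change of CDH1 was called, and the intervals leave room for differences in either direction.

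EPCAM encodes an epithelial cell adhesion molecule and surface antigen (chromosome 2, 47369311 to 47387020). It had 8.58, 6.53 and 9.22 normalised CPM in COM, 10.14, 10.04 and 10.5 in AgNPs, 10.17, 11.01 and 11.46 in DOC, and 11.03, 11.48 and 12.15 in BLANK. The COM libraries lay below all others. EPCAM fell in COM by 0.51 ± 0.11 on the log2 scale, a 1.43-fold lower level (adjusted p = 0.000155). Its log2 difference was -0.18 ± 0.10 in AgNPs (adjusted p = 0.194), where all libraries were below BLANK, and -0.09 ± 0.09 in DOC (adjusted p = 0.577).

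OCLN encodes occludin, a membrane protein of tight junctions (chromosome 5, 69492547 to 69558104). Its normalised CPM was 20.6, 22.9 and 20.4 in COM, 19.4, 20.1 and 21.8 in AgNPs, 20.6, 21.3 and 21.0 in DOC, and 18.9, 18.0 and 16.5 in BLANK. Every treated library was above every BLANK library. OCLN rose by 0.26 ± 0.08 in COM (adjusted p = 0.004), 0.20 ± 0.07 in AgNPs (adjusted p = 0.0355) and 0.24 ± 0.07 in DOC (adjusted p = 0.0129), all log2. Without COM replicate 2, and by DESeq2, the COM call was lost, and the AgNPs and DOC calls were lost under 9 and 6 of 23 alternatives.

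TJP1 encodes ZO-1, the scaffold that links tight junction proteins to actin (chromosome 15, 29699367 to 29969049). It had 152, 160 and 154 normalised CPM in COM, 139, 137 and 132 in AgNPs, 129, 141 and 144 in DOC, and 141, 132 and 128 in BLANK. Only the COM libraries lay apart from BLANK. TJP1 rose by 0.22 ± 0.04 in COM (adjusted p = 2.97e-05), and its log2 difference was 0.02 ± 0.04 in AgNPs (adjusted p = 0.698) and 0.05 ± 0.04 in DOC (adjusted p = 0.429). Without DOC replicate 1 and BLANK replicate 1 the DOC difference was 0.13 and passed (adjusted p = 0.00255).

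Of the mesenchymal genes, CDH2 encodes N-cadherin, the cadherin of mesenchymal and neural cells (chromosome 18, 27932879 to 28177130). Its normalised CPM was 114, 117 and 115 in COM, 112, 111 and 112 in AgNPs, 94.3, 99.8 and 92.9 in DOC, and 94.2, 93.9 and 89.3 in BLANK. The libraries fell into 2 levels, with COM and AgNPs above DOC and BLANK. CDH2 rose by 0.32 ± 0.04 in COM (adjusted p = 5.3e-09) and 0.27 ± 0.04 in AgNPs (adjusted p = 3.33e-07), and differed by 0.05 ± 0.04 in DOC (adjusted p = 0.386), all log2.

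VIM encodes vimentin (chromosome 10, 17228241 to 17237593). It had 749, 753 and 772 normalised CPM in COM, 786, 802 and 802 in AgNPs, 821, 789 and 785 in DOC, and 879, 864 and 872 in BLANK. All 9 treated libraries were below all BLANK libraries. VIM fell by 0.20 ± 0.03 in COM (adjusted p = 3.09e-08), 0.13 ± 0.03 in AgNPs (adjusted p = 0.000117) and 0.13 ± 0.03 in DOC (adjusted p = 0.000514), all log2. VIM was the only mesenchymal gene of the 5 that fell under any treatment.

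FN1 encodes fibronectin, the matrix protein that cells bind through integrins (chromosome 2, 215360865 to 215436068). Its normalised CPM was 41.3, 41.8 and 40.1 in COM, 31.0, 29.0 and 29.5 in AgNPs, 37.2, 31.0 and 30.8 in DOC, and 22.97, 24.46 and 25.91 in BLANK. COM lay above all other libraries, and AgNPs and DOC lay between COM and BLANK. FN1 rose by 0.75 ± 0.07 in COM (1.68-fold, adjusted p = 1.19e-11), 0.29 ± 0.07 in AgNPs (adjusted p = 0.00126) and 0.43 ± 0.06 in DOC (adjusted p = 1.07e-05), all log2. The 37.2 CPM of DOC replicate 1 was the highest DOC value, and without it and BLANK replicate 1 the DOC rise was 0.30 (adjusted p = 0.000658).

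ZEB1 encodes a zinc finger repressor of CDH1 (chromosome 10, 31318417 to 31529804). It had 75.0, 72.5 and 69.9 normalised CPM in COM, 73.2, 63.2 and 69.9 in AgNPs, 58.6, 60.1 and 63.3 in DOC, and 65.5, 62.8 and 61.1 in BLANK. COM alone lay apart from BLANK. ZEB1 rose by 0.20 ± 0.05 in COM (adjusted p = 0.000803) and 0.12 ± 0.05 in AgNPs (adjusted p = 0.045), and its log2 difference in DOC was -0.06 ± 0.05 (adjusted p = 0.435). The AgNPs call was lost under 14 of 23 alternatives, and the COM call was lost in both limma fits of FPKM values.

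SNAI2 encodes Slug, another zinc finger repressor of CDH1 (chromosome 8, 48917598 to 48921429). Its normalised CPM was 48.4, 47.4 and 45.4 in COM, 38.4, 38.4 and 39.5 in AgNPs, 42.6, 42.2 and 50.3 in DOC, and 43.9, 38.0 and 40.2 in BLANK. COM lay above BLANK, and the AgNPs and DOC libraries overlapped BLANK. SNAI2 rose by 0.21 ± 0.06 in COM (adjusted p = 0.00625), and its log2 difference was -0.07 ± 0.06 in AgNPs (adjusted p = 0.444) and 0.15 ± 0.06 in DOC (adjusted p = 0.0837). DESeq2 did not call the COM rise (adjusted p = 0.0798), and without DOC replicate 1 and BLANK replicate 1 the DOC difference was 0.24 and passed (adjusted p = 0.00257).

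**Figure D2:**
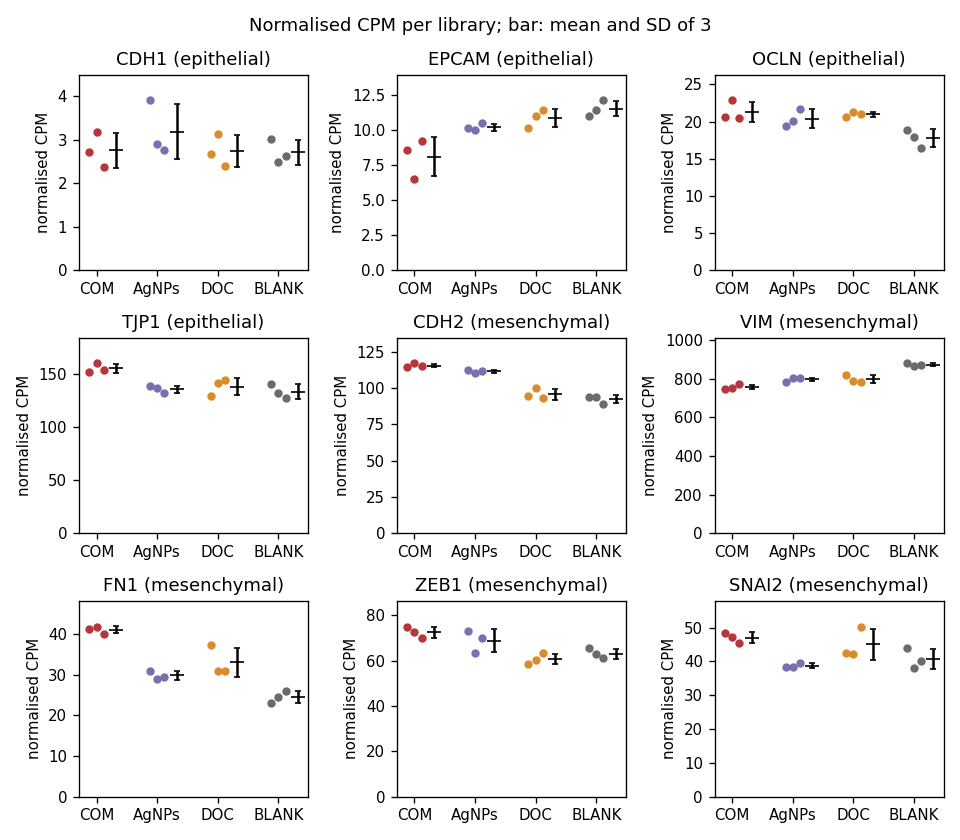
Normalised CPM of each gene by group, with an axis from 0 for each gene, 1 point per library, and the mean and SD of 3 libraries beside them. EPCAM is lowest in COM at 6.53 to 9.22 CPM, FN1 highest in COM at 40.1 to 41.8 CPM, and VIM highest in BLANK at 864 to 879 CPM.

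By class, the COM comparison with BLANK called 2 epithelial genes higher (OCLN and TJP1), 1 lower (EPCAM) and left 1 (CDH1). It called 4 mesenchymal genes higher (CDH2, FN1, ZEB1 and SNAI2) and 1 lower (VIM). In this comparison 49.6% of the 19986 genes tested were called, 25.1% higher and 24.5% lower. The median log2 difference was 0.12 over the epithelial genes, 0.21 over the mesenchymal genes and 0.03 over all genes. In 8 of the 9 genes, CDH1 being the exception, the COM libraries did not overlap BLANK, against 56.8% of all genes. With thinned counts all 8 calls held, and FN1 rose by 0.78 (adjusted p = 2.67e-11).

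In AgNPs against BLANK, where 30.9% of genes were called (14.9% higher and 16% lower), 1 epithelial gene was called higher (OCLN) and 3 were not called. Of the mesenchymal genes, 3 were called higher (CDH2, FN1 and ZEB1), 1 lower (VIM) and 1 was not called (SNAI2). The median log2 difference was 0.11 for the epithelial and 0.12 for the mesenchymal genes, with 0.01 over all genes. The AgNPs libraries did not overlap BLANK in 5 of the 9 genes (EPCAM, OCLN, CDH2, VIM and FN1), against 42.5% of all genes. In DOC against BLANK, where 17% of genes were called (7.16% higher and 9.81% lower), OCLN was the 1 epithelial gene called higher. Of the mesenchymal genes FN1 was called higher, VIM lower and 3 were not called. The DOC medians were 0.03 for the epithelial genes, 0.05 for the mesenchymal genes and 0.00488 over all genes. The DOC libraries did not overlap BLANK in 3 of the 9 (OCLN, VIM and FN1), against 31.5% of all genes. These 3 comparisons share the BLANK libraries.

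**Figure D3:**
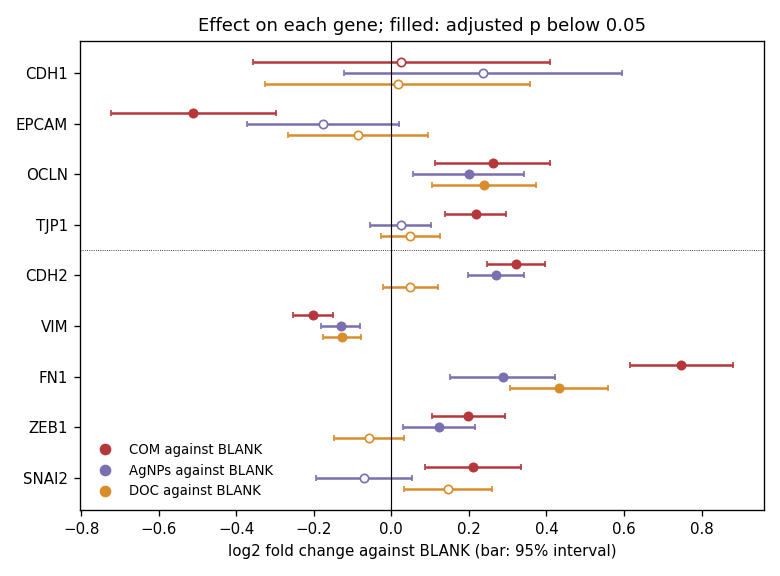
Log2 fold change of each gene against BLANK in COM, AgNPs and DOC, with 95% intervals, filled where adjusted p was below 0.05, and epithelial genes above the dotted line. OCLN and FN1 were called higher and VIM lower under all 3 treatments, and EPCAM at -0.51 and FN1 at 0.75 in COM are the widest from 0.

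Setting COM beside AgNPs asked what DOC added to the nanoparticles, and 21.9% of genes were called (9.87% higher and 12% lower). FN1 rose by 0.46 ± 0.07 (adjusted p = 7.5e-06), SNAI2 by 0.28 ± 0.07 (adjusted p = 0.0027) and TJP1 by 0.19 ± 0.04 (adjusted p = 0.000949) on the log2 scale. EPCAM fell by 0.33 ± 0.12 (adjusted p = 0.0385) and VIM by 0.07 ± 0.03 (adjusted p = 0.044). The COM libraries did not overlap AgNPs in 6 of the 9 genes, these 5 and CDH2, against 37% of all genes. The EPCAM call was lost under 7 of 23 alternatives and the VIM call under 11, and the TJP1 call was lost in both limma fits (adjusted p up to 0.127). The intervals for the remaining genes were -0.61 to 0.19 for CDH1, -0.09 to 0.22 for OCLN, -0.02 to 0.13 for CDH2 and -0.02 to 0.18 for ZEB1.

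Setting COM beside DOC asked what the nanoparticles added to DOC, and 36.6% of genes were called (18.1% higher and 18.5% lower). FN1 rose by 0.32 ± 0.07 (adjusted p = 0.000201), CDH2 by 0.27 ± 0.04 (adjusted p = 3.36e-07), ZEB1 by 0.26 ± 0.05 (adjusted p = 6.73e-05) and TJP1 by 0.17 ± 0.04 (adjusted p = 0.00111), all log2. EPCAM fell by 0.42 ± 0.11 (adjusted p = 0.00233), a call lost without COM replicate 2 (adjusted p = 0.0514). VIM fell by 0.07 ± 0.03 (adjusted p = 0.0212), a call lost under 4 of 23 alternatives. The ZEB1 and TJP1 calls were lost in both limma fits (adjusted p up to 0.151 and 0.102). The COM libraries did not overlap DOC in these 6 genes, against 45.2% of all genes. The intervals were -0.38 to 0.40 for CDH1, -0.13 to 0.17 for OCLN and -0.06 to 0.19 for SNAI2.

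The interaction, the DOC effect with AgNPs minus that without, was called for 1.11% of genes (0.731% higher and 0.375% lower) and for 0 of the 9 by edgeR. At an unadjusted p under 0.05 1 of the 9 passed (TJP1), against 10.1% of all genes, and neither DESeq2 nor the limma fits called any of the 9. The interaction of TJP1 was 0.14 (95% interval 0.03 to 0.26, adjusted p = 0.322). For FN1 it was 0.03 (-0.16 to 0.22, adjusted p = 0.953), and for CDH2 it was 0.00217 (-0.10 to 0.11, adjusted p = 0.994). For EPCAM it was -0.25 (-0.54 to 0.05, adjusted p = 0.613).

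Ratios within a library do not depend on how libraries are scaled to each other. The log2 ratio of CDH1 to VIM counts averaged -8.09 ± 0.225 in COM, -7.97 ± 0.286 in AgNPs, -8.18 ± 0.196 in DOC and -8.325 ± 0.133 in BLANK (SD, n = 3). The differences from BLANK were 0.23 in COM (p = 0.2), 0.36 in AgNPs (p = 0.1) and 0.14 in DOC (p = 0.4) by two-sided exact permutation tests. The ratio of CDH1 to CDH2 differed by -0.29 in COM (p = 0.2), -0.04 in AgNPs (p = 0.8) and -0.04 in DOC (p = 0.7) by the same exact test. The sign of these last differences turned with thinned counts, to 0.0375 in AgNPs and 0.24 in DOC, and in DOC with FPKM, to 0.19. With 3 libraries against 3, the smallest p that each of these 6 exact tests allows is 0.1.

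The transcript rows behind each gene differed in number. VIM counts lay almost wholly on 1 RefSeq transcript, XM_006717500.2, with 99.8% in COM. EPCAM and SNAI2 had 1 row each. CDH2 counts lay mainly on NM_001792.4, with 47.2, 54.6 and 42.9% of its counts in COM, 54.2, 55.2 and 61.2% in AgNPs, 51.0, 60.7 and 57.0% in DOC, and 55.9, 60.7 and 55.2% in BLANK. The COM libraries were below the BLANK libraries in that share, without a test, since the error of the split between transcripts is unknown.

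CDH1 counts were all on NM_004360.4 in BLANK, and 65.9 ± 9.64% were on it in AgNPs (SD, n = 3), where a library held 36 to 52 CDH1 counts. FN1 had 33 rows and ZEB1 48, of which 18 and 33 had a mean of at least 10 counts in BLANK. ATIC overlaps FN1 and had 1046 to 1070 counts in COM and 2456 to 2652 in BLANK. VIM-AS1, with 8 to 16 counts in COM and 26 to 36 in BLANK, and ZEB1-AS1, with 55 to 67 in COM and 82 to 97 in BLANK, overlap their namesakes. These are overlaps of gene spans, and overlap of exons was not examined. Without a stated strand setting, reads from any stretch that both genes transcribe may not be told apart. OCLN and TJP1 are uncertain in the same way, since reads could be shared with the pseudogenes OCLNP1 and TJP1P1.

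Across the 12 libraries CDH2 and ZEB1 moved most alike among the 9 genes (Pearson r = 0.807), and FN1 and VIM least (r = -0.861). The points share their group means and differ in depth. Beyond the 9, the genes whose log2 CPM ran closest to FN1 were ERVK13-1 (r = 0.971), TINCR (r = 0.96) and STK38 (r = 0.953), out of 10911 genes. For CDH2 they were PITHD1 (r = 0.987), ADGRL2 and TDP2 (r = 0.982 each), and for VIM REXO4 (r = 0.97), ADCY3 and PRMT1 (r = 0.967 each). For EPCAM they were RHOBTB1 (r = 0.969), ABCB10 (r = 0.967) and ENGASE (r = 0.95). For TJP1 they were SEC24B (r = 0.971), KPNA4 (r = 0.965) and PROSER1 (r = 0.955), and for ZEB1 NEDD4 (r = 0.964), PRKCI (r = 0.96) and FAM76B (r = 0.948). For SNAI2 PRTG led with r = 0.925, for OCLN KHDC4 with r = 0.92, and for CDH1 CEPT1 with r = 0.843.

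Other junction genes also moved in different directions in COM, where 49.6% of all genes were called, 25.1% higher and 24.5% lower. Of 9 tight junction genes tested, of 17 listed, 4 rose, 1 fell and 4 did not pass, with a median of 0.33 against 0.03 over all genes (log2). The claudin CLDN12 had 34.4 ± 1.86 normalised CPM in COM and 22.2 ± 0.272 in BLANK (SD, n = 3) and rose by 0.63 ± 0.07 (adjusted p = 5.41e-10). The claudin CLDN4 rose by 0.33 ± 0.04 (adjusted p = 4.42e-08), and F11R, the junctional adhesion molecule JAM-A, by 0.42 ± 0.06 (adjusted p = 2.89e-07). The 1 that fell was CGN, with 4.42 ± 0.740 normalised CPM in COM and 7.60 ± 0.713 in BLANK (SD, n = 3). Of 10 adherens junction genes, 3 rose, 4 fell and 3 did not pass, with a median of -0.04. CDH3, which encodes P-cadherin, fell by 0.69 ± 0.08 (adjusted p = 1.09e-09), the nectin NECTIN1 by 0.38 ± 0.04 (adjusted p = 1.2e-10) and vinculin, VCL, by 0.20 ± 0.03 (adjusted p = 7.4e-08). In the other direction, the nectin NECTIN2 had 39.8 ± 1.87 normalised CPM in COM and 30.2 ± 1.55 in BLANK (SD, n = 3).

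Of 11 desmosome genes tested in COM, 2 rose, 6 fell and 3 did not pass, with a median of -0.12. The plakophilins PKP3 and PKP1 fell by 0.64 ± 0.07 and 0.40 ± 0.03 (adjusted p = 4.54e-10 and 6.35e-14), and the desmosomal cadherin DSC2 by 0.35 ± 0.04 (adjusted p = 1.23e-08). PKP1 had 193 ± 0.918 normalised CPM in COM and 255 ± 2.63 in BLANK (SD, n = 3). JUP went the other way, with 11.6 ± 0.936 normalised CPM in COM and 7.29 ± 1.06 in BLANK (SD, n = 3). Desmoplakin, DSP, had at most 3 counts in any library. In AgNPs 2 of these 11 rose and 3 fell, and in DOC 3 fell and 8 did not pass. The share of all genes called was 49.6% in COM, 30.9% in AgNPs and 17% in DOC.

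All 7 tested factors of the epithelial state, of 14 listed, were called in COM, 5 higher and 2 lower, with a median of 0.47. Over all genes 49.6% were called there, 25.1% higher and 24.5% lower. ESRP1, a splicing factor of epithelial cells, had 10.1 ± 1.17 normalised CPM in COM and 2.79 ± 0.176 in BLANK (SD, n = 3), a rise of 1.85 ± 0.15 (adjusted p = 4.36e-13). ELF3, an epithelial transcription factor, rose by 1.37 ± 0.07 (adjusted p = 1.12e-17) and KLF5 by 0.75 ± 0.04 (adjusted p = 1.31e-18). The 2 lower genes were EHF and ESRP2. EHF had 5.60 ± 1.71 normalised CPM in COM and 11.7 ± 1.26 in BLANK. ESRP2, more abundant than ESRP1, had 54.2 ± 1.51 in COM and 60.8 ± 1.03 in BLANK (SD, n = 3). In AgNPs 5 of these 7 rose and 1 fell, against 30.9% of all genes called, with ESRP1 at 1.39 ± 0.15 (adjusted p = 2.36e-09). In DOC 2 rose and 5 did not pass, against 17% of all genes called. ELF3 rose there by 0.44 ± 0.07 (adjusted p = 7.49e-05) and KLF5 by 0.10 ± 0.04 (adjusted p = 0.0467), the KLF5 call being lost under 18 of 23 alternatives. ESRP1 differed between COM and DOC by 1.98 ± 0.15 (adjusted p = 3.99e-13).

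Of 5 other tested factors of the transition, of 11 listed, 1 rose, 2 fell and 2 did not pass in COM, against 49.6% of all genes called. SNAI1, which encodes Snail, had 18.6 ± 0.873 normalised CPM in COM and 9.315 ± 0.426 in BLANK (SD, n = 3), a rise of 1.0 ± 0.09 (adjusted p = 2.71e-11). The E-box factors TCF4 and TCF3 fell by 0.46 ± 0.06 and 0.34 ± 0.03 (adjusted p = 2.58e-08 and 1.92e-10). SNAI1 rose by 0.32 ± 0.10 in AgNPs (adjusted p = 0.0117) and 0.30 ± 0.09 in DOC (adjusted p = 0.0219), calls lost under 3 and 6 of 23 alternatives.

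Of 19 matrix and mesenchymal genes tested in COM, 7 rose, 8 fell and 4 did not pass, with a median of -0.05. Over all genes 49.6% were called. THBS1, the matrix protein thrombospondin 1, had 197 ± 4.09 normalised CPM in COM and 79.1 ± 0.587 in BLANK (SD, n = 3), a rise of 1.31 ± 0.03 (adjusted p = 1.31e-27). TNC, which encodes tenascin C, fell by 0.55 ± 0.03 (adjusted p = 4.93e-17) and CDH11, a mesenchymal cadherin, by 0.44 ± 0.03 (adjusted p = 4.37e-15). THBS1 rose by 0.86 ± 0.03 in AgNPs (adjusted p = 1.53e-21) and 0.33 ± 0.03 in DOC (adjusted p = 8.84e-09).

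Receptors of fibronectin and other matrix were called higher for 5, lower for 4 and not called for 3 of 12 tested in COM. Over all genes 49.6% were called. ITGA5, the alpha chain of the main fibronectin receptor, had 108 ± 5.28 normalised CPM in COM and 62.1 ± 1.51 in BLANK (SD, n = 3), and rose by 0.79 ± 0.04 (adjusted p = 1.1e-17). In AgNPs ITGA5 rose by 0.61 ± 0.04 (adjusted p = 4.4e-14), and in DOC it had 61.5 ± 1.82 normalised CPM (SD, n = 3). The heparan sulphate proteoglycan SDC4 rose by 0.46 ± 0.04 (adjusted p = 2.6e-11) and SDC1 fell by 0.37 ± 0.03 (adjusted p = 2.29e-12) in COM.

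Of 16 genes of the TGF-beta pathway, which drives the transition in many epithelia, 3 rose, 8 fell and 5 did not pass in COM, with a median of -0.08. SKIL, an inhibitor of the pathway that is also its target, rose by 0.87 ± 0.04 (adjusted p = 3.33e-19). ID1, a BMP and TGF-beta target, fell by 0.50 ± 0.04 (adjusted p = 5.64e-14) and LTBP1, which binds latent TGF-beta, by 0.43 ± 0.03 (adjusted p = 4.77e-13). In AgNPs 4 rose and 8 fell, and in DOC 3 rose and 1 fell. The share of all genes called was 49.6% in COM, 30.9% in AgNPs and 17% in DOC.

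The same lists were set beside each single treatment. Against AgNPs, where 21.9% of all genes were called, 3 of 11 desmosome genes fell and 8 did not pass in COM. THBS1 rose by a further 0.45 ± 0.03 (adjusted p = 1.44e-12), SNAI1 by 0.68 ± 0.10 (adjusted p = 2.52e-06) and ELF3 by 0.49 ± 0.07 (adjusted p = 4.14e-06), and ID1 fell by 0.36 ± 0.04 (adjusted p = 8.69e-09). Against DOC, where 36.6% of all genes were called, 5 of 7 epithelial factors rose and 1 fell, and 3 of 10 adherens junction genes rose and 4 fell in COM. There ITGA5 rose by 0.81 ± 0.04 (adjusted p = 1.65e-17), NECTIN2 by 0.49 ± 0.06 (adjusted p = 2.4e-08) and THBS1 by 0.98 ± 0.03 (adjusted p = 1.18e-23), and the integrin ITGB8 fell by 0.53 ± 0.07 (adjusted p = 2.68e-08). The 5 pairwise comparisons share libraries, and no difference between them was tested other than the interaction.

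**Figure D4:**
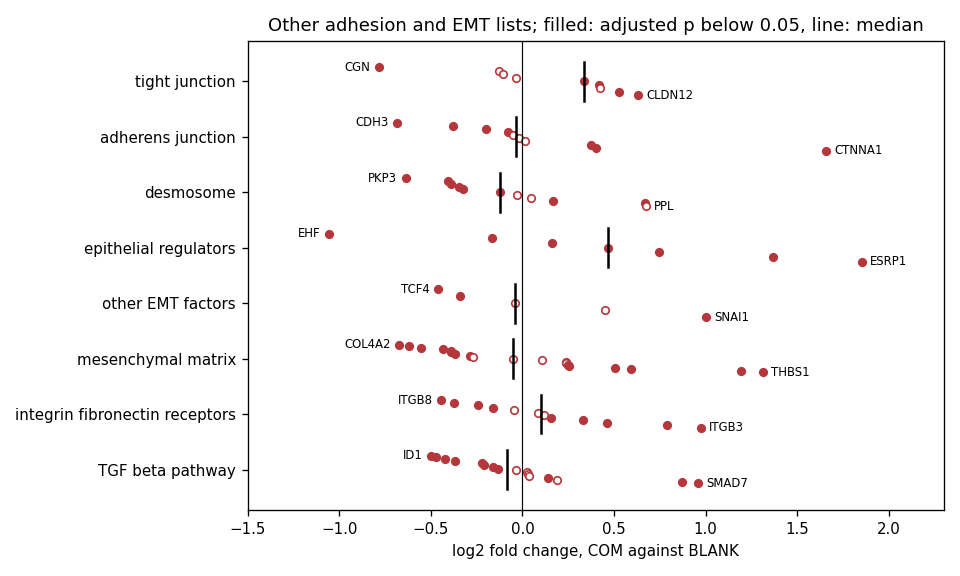
Log2 fold change of each tested gene of 8 lists in COM against BLANK, filled where adjusted p was below 0.05, with a line at each list's median and names at the lowest and highest gene. Each list holds genes on both sides of 0, and the epithelial regulators run from EHF at -1.06 to ESRP1 at 1.85.

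Markers of other cell types moved between the groups as well. The summed level of 8 fibroblast markers was 84.1 to 91.3 CPM in COM, 95.5 to 107.6 in AgNPs, 115.8 to 130.4 in DOC and 113.5 to 126.7 in BLANK. Of 5 tested, 2 rose (PDGFRB and COL3A1) and 1 fell (COL1A2, by 0.81 ± 0.06 on the log2 scale) in COM. PDGFRB and COL3A1 were scarce, at 1.30 and 1.33 normalised CPM in COM and 0.49 and 0.68 in BLANK. COL1A2 had 52.1 in COM and 91.6 in BLANK. Over all genes 25.1% were called higher and 24.5% lower in COM. The summed level of the 4 immune markers in the table was 49.9 to 57.0 CPM in COM, 38.9 to 45.2 in AgNPs, 49.7 to 50.7 in DOC and 41.3 to 45.5 in BLANK. The 3 tested were called higher in COM (CD68, CD14 and LYZ). CD14 averaged only 0.97 normalised CPM in COM and 0.33 in BLANK, and its COM libraries overlapped BLANK. DCN was at 0 in all BLANK, AgNPs and DOC libraries and PTPRC in all AgNPs libraries. Of the 2 tested genes in each of the basal and neuroendocrine lists, TP63 rose and KRT15 fell, and ENO2 and SYP rose, in COM. SYP averaged only 0.91 normalised CPM in COM and 0.45 in BLANK. At levels like those of SYP and CD14, the count filter favours genes that are high in COM. Of 3 tested endothelial markers KDR rose in COM. Of 4 tested luminal markers KRT8 rose, HOXB13 and KRT18 fell and 1 did not pass in COM. The COM calls of TP63 and SYP were lost under 3 of 21 and 7 of 20 alternatives, and those of KRT15, LYZ, KDR and COL3A1 under 6 to 12 of 23. The part of these shifts in the results on the adhesion genes was not tested.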

How the data were processed

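RNA of 12 PC3 libraries, 4 groups of 3, was analysed from the table the authors deposited. Per the labels' protocols, total RNA was extracted with TRIzol and libraries were made with a BGI mRNA kit. The submitters' processing notes name HISAT2, Bowtie2 2.2.5, RSEM and GRCh38, without the step each served, and the strand setting is not given in the sources used here. The read-count columns that the authors deposited give an expected count for each transcript row, without normalisation. The expression columns that the authors deposited were taken as FPKM from their values, since the header names no unit. Another 10 columns, the authors' group averages, were not used.

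Expected counts of linear rows, 177700 of 221796, were summed by gene and rounded. FPKM values were summed in the same way and served to compare genes with each other. The test was that of edgeR 4.0.16, run in R 4.3.3 (TMM factors, filterByExpr, robust quasi-likelihood fit of all 12 libraries, 1 coefficient per group). Calls required an adjusted p (Benjamini-Hochberg, all 19986 genes tested) under 0.05, and all 9 members passed the filter. Log2 fold changes carry standard errors of that fit. Normalised CPM use the TMM-scaled library size. The labels do not state separate cultures, so the p-values may reflect technical spread alone. The scripts were tested on simulated data.

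The members and lists were chosen with earlier results of these data known. From the tight junction list 1 gene is not reported here and was left out of its counts and median. All 9 members are named in every comparison. Each other list gave up to 3 called genes of smallest adjusted p per comparison, and the text prints a selection of these. For each member, the 3 genes with the highest Pearson r at an average log2 CPM of at least 3 were taken. Genes that mark the ends of each list in the plot of lists, PLOD2 and DSP, and the markers with low counts were named after their values were seen. So were JUP and the COM and BLANK levels of EHF, ESRP2, CGN and NECTIN2. Promoters are RefSeq's for GRCh38.p14, and gene positions are RefSeq's on the same build. Alternatives were RLE factors, other count filters, RefSeq rows only, thinned counts, a replicate block, the libraries of both groups only, each library left out, DESeq2 1.42.0 and limma 3.58.1 on log2 FPKM with a pseudocount of 1 or 0.1. One alternative, without DOC replicate 1 and BLANK replicate 1, was chosen after seeing the data.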

Additional observations from a re-analysis of the deposited data

Results flagged for a closer look

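The DOC effect with AgNPs differed from the DOC effect without AgNPs for 4 of the 117 genes tested from all lists (3.42%, against 1.11% of all genes), by the interaction term of the edgeR fit (n = 3 libraries per group). For HOXB13, a luminal transcription factor, the interaction was -0.25 ± 0.04 on the log2 scale (adjusted p = 0.000497), with a difference of -0.54 in COM against AgNPs and -0.29 in DOC against BLANK. For the proteoglycan SDC1 it was -0.25 ± 0.04 (adjusted p = 0.00111), with -0.28 in COM against AgNPs and -0.03 in DOC against BLANK. For KLF5 it was 0.24 ± 0.05 (adjusted p = 0.0152), with 0.34 in COM against AgNPs and 0.10 in DOC against BLANK, and this call was lost under 8 of 22 alternatives. For PLOD2, a collagen lysyl hydroxylase outside the naming rule and chosen after its value was seen, it was 0.17 ± 0.05 (adjusted p = 0.0497), with 0.10 in COM against AgNPs and -0.07 in DOC against BLANK, and it was lost under 16 of 22.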

How the results depend on the processing

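Of 54 results on the 9 genes, 27 were called, 13 of these kept their call under every alternative, and none of the 27 changed sign. Of the 27 not called, 2 passed under some alternative (SNAI2 and TJP1 in DOC). Of 150 results of other named genes, 34 lost their call under at least 1 alternative. The count of genes called in DOC against BLANK was 3391, with 2259 by DESeq2, 1061 and 1103 by limma with a pseudocount of 1 and 0.1, and 2204 (without DOC replicate 2) to 4027 when libraries were left out. The interaction count was 221, with 145 by DESeq2, 54 and 49 by limma, and 115 to 269 with 1 library left out or 313 without DOC replicate 1 and BLANK replicate 1. The number of epithelial genes called ranged from 0 to 1 in AgNPs, 0 to 2 in DOC, 1 to 2 in COM against AgNPs and 1 to 2 in COM against DOC when libraries were left out. It was 0 in AgNPs with no filter, 0 in AgNPs and DOC with thinned counts, DESeq2 and both limma fits, and 1 in COM against AgNPs with RefSeq rows only, DESeq2 and both limma fits. It was 1 in COM against DOC in both limma fits, and limma with a pseudocount of 1 called 2 mesenchymal genes in AgNPs. The difference from BLANK in the log2 CDH1 to CDH2 ratio turned positive in AgNPs with thinned counts (0.0375), and ranged from -0.191 to 0.053 when libraries were left out. In DOC this difference was 0.24 with thinned counts, 0.19 with FPKM and -0.107 to 0.037 when libraries were left out, 0.025 in AgNPs and 0.037 in DOC being the values without DOC replicate 1 and BLANK replicate 1. Of the mean CDH1 FPKM in DOC, 0.12 lay on the row URS00008B334F, which held a mean of 0.333 counts there. The row NM_004360.4 had 0.577 FPKM in DOC and 0.567 in BLANK. The cause of these shifts in the ratio was not tested. Same-numbered libraries of different groups deviated together weakly (r from -0.211 to 0.143, over 0.1 in 2 of 18 pairs), so the numbers were not taken as pairs. The replicate block gave 9812 called genes in COM, 6039 in AgNPs and 3206 in DOC against BLANK, 4224 and 7198 in COM against AgNPs and DOC and 176 in the interaction, and ended the call of VIM in COM against AgNPs alone among the 9. CDH1 had the lowest counts of the 9, at 26 to 67 a library.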

Other observations

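CTNNA1, the alpha-catenin gene that PC3 is known to have lost, had few counts and was higher in treated cells. It had 30 to 44 counts in COM, 29 to 37 in AgNPs, 33 to 39 in DOC and 19 to 30 in BLANK, at 3.57 ± 0.720 normalised CPM in COM, 2.61 ± 0.348 in AgNPs, 1.855 ± 0.200 in DOC and 1.13 ± 0.244 in BLANK (SD, n = 3). It rose by 1.65 ± 0.22 in COM (adjusted p = 9.73e-08), 1.20 ± 0.23 in AgNPs (adjusted p = 7.41e-05) and 0.71 ± 0.23 in DOC (adjusted p = 0.0271), all log2 by edgeR, and the DOC call was lost under 9 of 23 alternatives. Its COM and AgNPs values were looked up after the fit, outside the naming rule. COM was also the group sequenced least deeply and BLANK the most deeply.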
